A study of Saccharomyces cerevisiae with 6 samples.

Results

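The genes described here are 10 small stress and late-growth genes of the budding yeast Saccharomyces cerevisiae, listed by gene name and found on the arrays by systematic name: INH1, STF1, STF2, TMA10, RGI1, RGI2, SIP18, GRE1, EGO4 (YNR034W-A) and FMP16. All 10 were found, out of 6256 genes with a probe, each with 1 probe printed in 2 spots. Their coding lengths in the RefSeq table of assembly R64 run from 240 bases for SIP18 to 507 bases for GRE1. The genes were picked with their differences between the 2 strains already known, so those differences are given as a description, with no test. The strains were BH13, a mutant of S. cerevisiae obtained by selection and more resistant to coniferyl aldehyde, a phenolic growth inhibitor from lignin, and the reference strain, here REF. Each strain had 3 replicate samples grown in minimal medium at 30 °C, with no treatment and so no coniferyl aldehyde, and harvested in log phase at an optical density of about 1.0. Each RNA sample was labelled with Cy3 on an array of its own. The labels give neither the mutations of BH13 nor the mating type of either strain, and BH13 is 1 selected strain.

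INH1, STF1, STF2 and TMA10 belong together through the mitochondrial ATP synthase. When the proton gradient collapses, this enzyme can run backwards and burn ATP. Inh1 binds it and stops that, Stf1 is a paralog of Inh1 that can act in the same way, and Stf2 was described as a stabilising factor of the enzyme bound to its inhibitor. Tma10 is the paralog of Stf2 and was found with ribosomes. Rgi1 and Rgi2 are paralogs induced in respiratory growth and linked to energy metabolism. Sip18 and Gre1 are paralogous hydrophilins, small, very hydrophilic proteins made under water loss, and Stf2 is counted with the hydrophilins as well. Ego4 is the paralog of Ego2, a part of the EGO complex, which regulates the growth-controlling kinase complex TORC1 at the vacuole. Fmp16 is a small protein found in mitochondria whose role is not settled. Many of these genes are known to be induced as cells leave fast growth on glucose or under stress.

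Levels below are log2 signal minus the array's 75th percentile, so that 0 is the level below which 75% of gene spots lie, and a difference of 1 is 2-fold. Levels of different genes are not set against each other, because each probe has its own brightness. Differences are BH13 minus REF, given ± limma's standard error over 3 arrays of each strain. All 120 member spots cleared the scanner program's test for a signal well above background, with no saturated spot and no outlier among them. The 2 spots of a member differed by a median of 0.07 on the log2 scale, and by 0.48 at most, for RGI2 on REF replicate 3. On bulk RNA, more cells that express a gene and more RNA per cell cannot be told apart.

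Of the 10 genes, 9 were higher in BH13 and 1, INH1, was lower. No member's BH13 values overlapped its REF values. The median difference of the 10 was 4.05, beside -0.07 over all 5890 genes tested. The members are all short, whereas the latter median covers genes of every length and is not matched for it. Whether gene length plays a part in the differences was not tested. The strains differed across most of the genome, with 81.3% of genes called by limma at a Benjamini-Hochberg adjusted p under 0.05. Of all genes tested, 38.0% were called higher and 43.3% lower, and the BH13 values lay wholly above the REF values for 39.2% and wholly below for 44.6%. All 10 members were among the genes called, but because they were picked on this contrast, nothing is read from that count. All BH13 arrays came from 1 slide. REF replicates 1 and 2 shared another slide, and REF replicate 3 lay on a slide of its own. Both REF slides were scanned on a different day from the first, so strain cannot be told apart from slide or scan day. The a-cell mating markers also moved with strain. All 7 were called lower in BH13, with a summed signal of 0.276 to 0.285 times the 75th percentile there and 7.53 to 7.86 times in REF. The largest decreases were those of MFA2, MFA1 and STE2, the last at -7.59. STE2 was itself dim in BH13, with a mean of -6.07, which limits how well its size is known. MFA2 and AGA2 had no BH13 array with a signal well above background, and MFA1 had 1, so no size is given for these. Of the alpha-cell markers, MF(ALPHA)1 at 1.07 and STE3 at 0.44 were called higher, SAG1 at -0.05 was not called, and MF(ALPHA)2 was too dim to be tested. The summed signal of these 4 was low in both strains and overlapped. It was 0.143 to 0.167 times the 75th percentile in BH13 and 0.12 to 0.147 times in REF. MF(ALPHA)1 was dim in both, with means of -5.50 in BH13 and -6.57 in REF. The part of mating type in the members' differences was not tested.

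**Figure D1:**
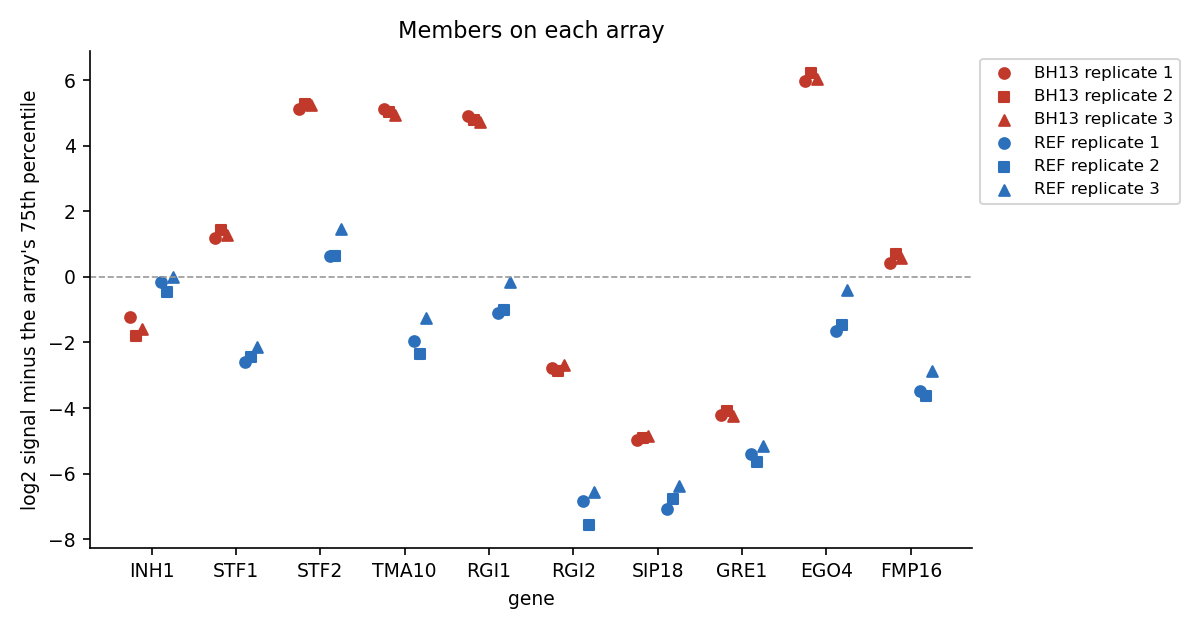
Log2 signal minus the array's 75th percentile (vertical axis) of the 10 genes (horizontal axis) on each of the 6 arrays, red for BH13 and blue for REF, with a symbol for each replicate number. The BH13 points lie above the REF points for every gene but INH1, and REF replicate 3 (blue triangles) is the highest REF point for all 10.

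The ATPase inhibitor pair went in opposite directions. INH1, the main inhibitor, stood at -1.21, -1.80 and -1.59 on the BH13 arrays and at -0.17, -0.46 and -0.02 on the REF arrays. Its difference was -1.32 ± 0.17, which is 2.50-fold lower in BH13. STF1, the second inhibitor, stood at 1.18, 1.44 and 1.27 in BH13 and at -2.60, -2.45 and -2.14 in REF. All 3 BH13 arrays were thus high for STF1 and low for INH1. The STF1 difference was 3.70 ± 0.13, or 13.0-fold. The ratio of STF1 to INH1, taken on each array, changed by 5.02 ± 0.28 on the log2 scale, a 32.4-fold shift towards STF1. Its SD was 0.43 in BH13 and 0.22 in REF. Among the 4 pairs of paralogs measured, this was the one whose members had differences of opposite sign. With normexp background correction, which takes background from the raw signal with a model, the shift was 4.78.

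STF2 and TMA10, the stabilising factor and its ribosome-associated paralog, were both far higher in BH13. STF2 stood at 5.11, 5.26 and 5.25 on the BH13 arrays and at 0.63, 0.63 and 1.47 on the REF arrays. Its difference was 4.30 ± 0.21, or 19.7-fold. STF2 was thus above the 75th percentile on every array, REF included. TMA10 stood at 5.10, 5.03 and 4.94 in BH13 and at -1.97, -2.34 and -1.27 in REF, all of the latter below the 75th percentile. The TMA10 difference was 6.88 ± 0.23, or 118-fold. The ratio of TMA10 to STF2 changed by 2.58 ± 0.14 towards TMA10. The array-to-array SD of that ratio was 0.16 in BH13 and 0.19 in REF. In REF this was smaller than the SD of 0.54 for TMA10 or 0.48 for STF2 alone, and both genes were highest on REF replicate 3. In BH13 it was larger than the SD of either gene alone, 0.082 for both.

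The RGI genes were both higher in BH13, and the size of the RGI2 difference shrank when an offset was added to the signal. RGI1 stood at 4.91, 4.78 and 4.72 in BH13 and at -1.10, -1.0005 and -0.15 in REF. Its difference was 5.55 ± 0.23, or 46.9-fold. RGI2 stood at -2.79, -2.87 and -2.70 in BH13 and at -6.84, -7.57 and -6.57 in REF. The REF values of RGI2 are close to the floor of the array, since its processed signal there was 24.3, 25.7 and 28.6 intensity units against a mean of 2.60 to 3.74 for negative control spots. The RGI2 difference was 4.21 ± 0.22 on the processed signal, or 18.5-fold. It was 2.70, or 6.51-fold, with normexp background correction, which here adds an offset of 50 units, more than the REF signal itself, and so compresses the differences of dim probes. A pair of alternatives with no offset was chosen after seeing the data. RGI2 was at 3.73 with normexp and no offset, and at 4.17 when the median of each array's negative controls was subtracted from the raw signal. The ratio of RGI1 to RGI2 changed by 1.34 ± 0.27 on the processed signal, by 1.32 with negative controls subtracted, by 1.75 with normexp and no offset, and by 2.74 with the offset. The shift was towards RGI1 in all of these.

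SIP18 and GRE1, the hydrophilin pair, had the smallest increases of the 9 higher genes and were dim on all arrays. SIP18, reported to bind phospholipids and to aid survival of drying, stood at -4.97, -4.90 and -4.85 in BH13 and at -7.06, -6.76 and -6.37 in REF. Its difference was 1.83 ± 0.16, or 3.54-fold. GRE1 stood at -4.22, -4.10 and -4.26 in BH13 and at -5.39, -5.63 and -5.15 in REF. The GRE1 difference was 1.20 ± 0.12, or 2.30-fold. Neither gene came near the 75th percentile on any array. In intensity units SIP18 reached 76.8 to 92.4 in BH13 and 20.8 to 45.2 in REF, and GRE1 reached 121.6 to 155.1 and 66.5 to 98.9. With normexp the differences were 0.95 for SIP18 and 0.81 for GRE1, with normexp and no offset 1.39 and 0.99, and with negative controls subtracted 1.66 and 1.14. The ratio of SIP18 to GRE1 changed by 0.62 ± 0.18 on the processed signal, with all BH13 ratios above all REF ratios. The change was 0.53 with negative controls subtracted and 0.40 with normexp and no offset, and it shrank to 0.14 with the offset of 50 units. This was the smallest shift among the 4 pairs.

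**Figure D2:**
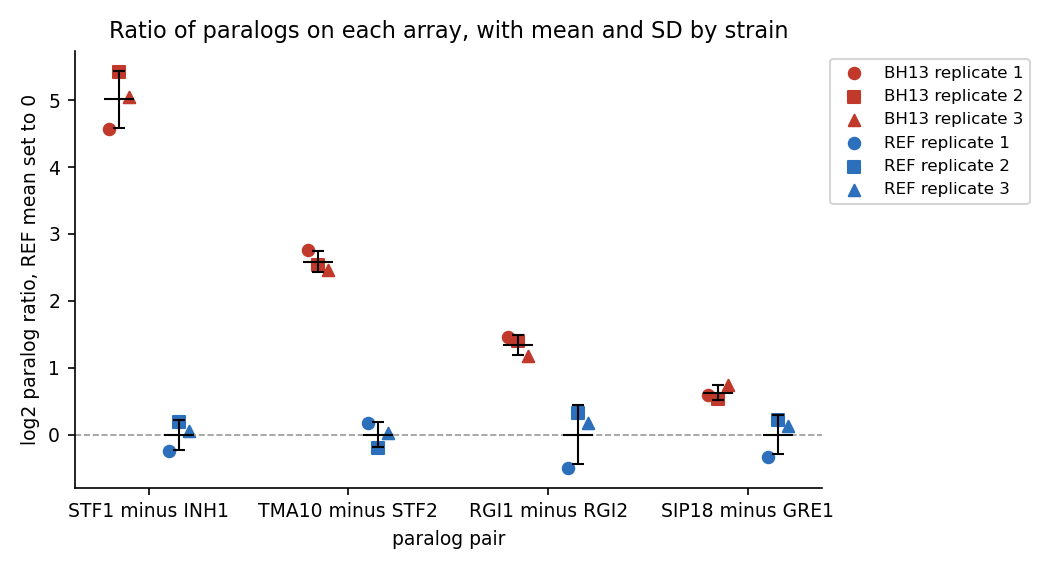
Log2 ratio of the first to the second paralog of each pair (horizontal axis) on each array, shifted so that the REF mean is 0 (vertical axis), with points for arrays and black bars for the mean and SD of 3 arrays per strain. The BH13 points lie above the REF points in all 4 pairs, by 5.02 for STF1 and INH1, 2.58 for TMA10 and STF2, 1.34 for RGI1 and RGI2, and 0.62 for SIP18 and GRE1.

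EGO4 had the largest difference of the 10 genes. It stood at 5.96, 6.20 and 6.05 on the BH13 arrays and at -1.65, -1.48 and -0.40 on the REF arrays. Its difference was 7.25 ± 0.29, or 152-fold. EGO4 also had the widest spread in REF, with an SD of 0.68 against 0.12 in BH13. Its paralog EGO2 has no probe among those used here, so the planned comparison of this pair was not made. FMP16 stood at 0.44, 0.71 and 0.58 in BH13 and at -3.48, -3.62 and -2.87 in REF. The FMP16 difference was 3.90 ± 0.18, or 14.9-fold. The FMP16 values were thus high on all BH13 arrays, and among the REF arrays highest on replicate 3.

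**Figure D3:**
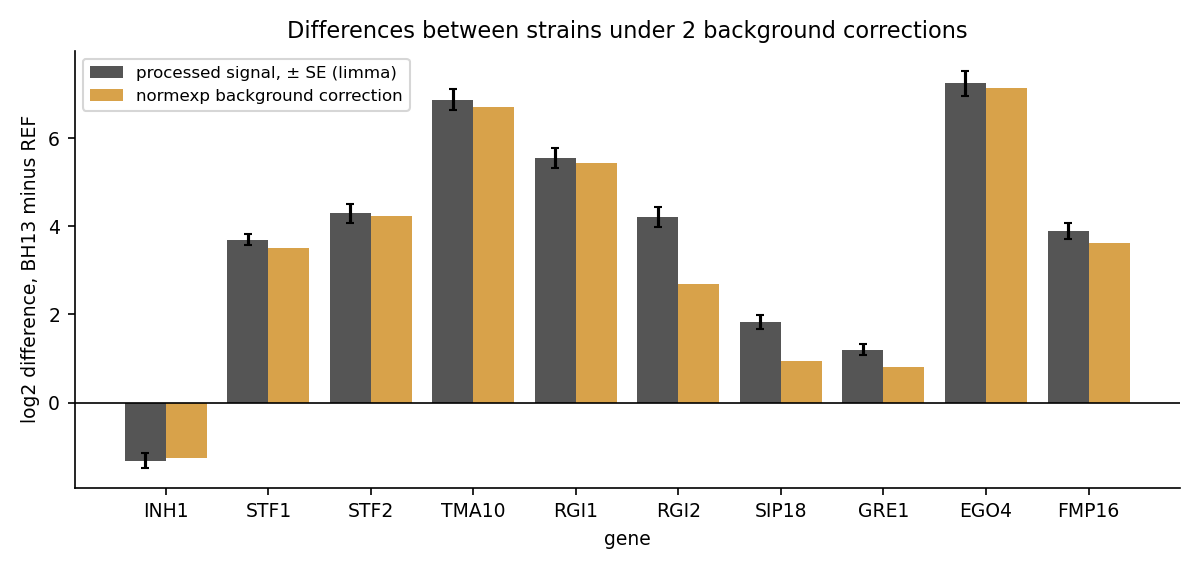
Log2 difference, BH13 minus REF (vertical axis), for the 10 genes (horizontal axis), as dark bars for the processed signal with the limma standard error (n = 3 arrays per strain) and as light bars for normexp background correction. The bars differ most for RGI2 (4.21 and 2.70) and SIP18 (1.83 and 0.95), and keep their sign for every gene.

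The size of the differences ranged widely among the 9 higher genes, and 5 of them exceeded 4 on the log2 scale, as did the increases of 55 of the 5890 genes. RGI2 is one of the 5 and was at 2.70 with normexp. In falling order of difference they were EGO4, TMA10, RGI1, STF2, RGI2, FMP16, STF1, SIP18 and GRE1. Gaps between neighbours in this order were taken array by array, as for the paralogs. The gap was 0.37 ± 0.21 between EGO4 and TMA10, 0.09 ± 0.23 between STF2 and RGI2, 0.31 ± 0.20 between RGI2 and FMP16, and 0.20 ± 0.13 between FMP16 and STF1. In these 4 cases the ratios of the 2 genes overlapped between the strains, whereas in the other neighbouring pairs they did not. RGI2 lay below FMP16 and STF1 with normexp.

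The spread among samples of one strain is separate from the difference between strains, and it was wide for these genes in REF. Within BH13 the median SD of the 10 genes was 0.093, next to 0.090 over all genes tested. Within REF it was 0.44, next to 0.11. All 10 genes had their highest REF value on replicate 3, where 42.3% of all genes tested did. REF replicate 3 exceeded the mean of REF replicates 1 and 2 by a median of 0.66 over the 10 genes and of 0.03 over all genes. The excess was 1.17 for EGO4, 0.90 for RGI1, 0.89 for TMA10 and 0.84 for STF2. It was 0.29 for INH1, which was low in BH13 but also highest on that REF array. For 7 of the 10 genes it was over 0.5, a size that 5.33% of all genes reached. REF replicate 3 was the only REF array on its slide, so sample and slide cannot be told apart. Without it, the difference was 7.64 for EGO4 and 7.18 for TMA10, and every member kept its direction. Of 11 other late-growth genes, 10 were highest on REF replicate 3, with a median excess of 0.34. None of 10 stress and late-growth regulators was, with a median of -0.04. Of 5 other hydrophilins, 2 had an excess over 0.5, and the median was 0.06. Their REF SD was 0.41 for HSP12, 0.42 for ROQ1, 0.20 for YNL190W, 0.08 for NOP6 and 0.05 for CPP1. Whether these lists differ from other genes was not tested.

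**Figure D4:**
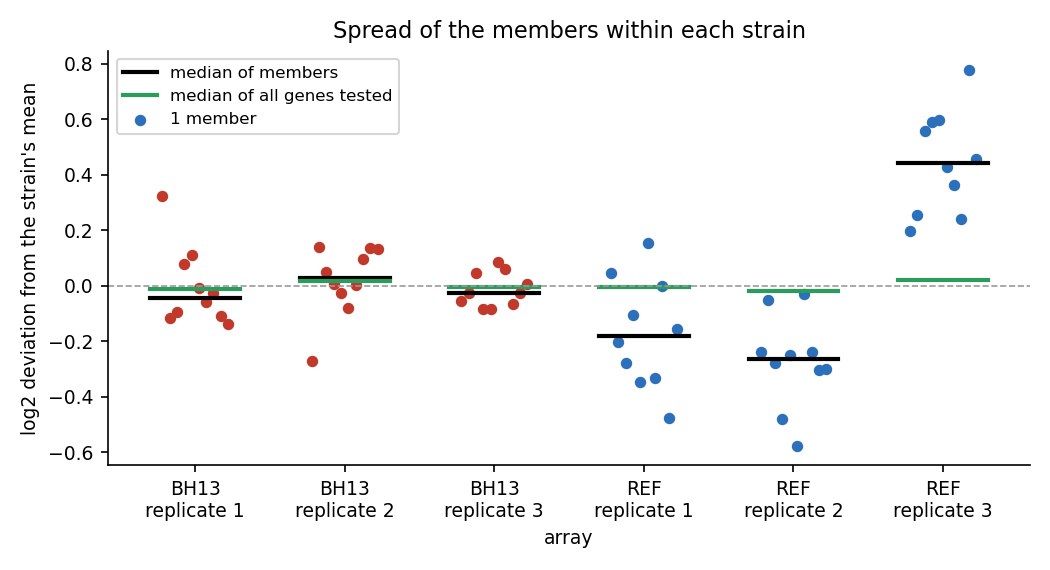
Log2 deviation of each of the 10 genes from its own strain's mean (vertical axis) on each array (horizontal axis), with a black line for the median of the 10 and a green line for the median of all 5890 genes. On REF replicate 3 all 10 points lie above 0 with a median of 0.44, and on REF replicate 2 none does.

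The genes of the enzyme that INH1 and STF1 act on went both ways. Of 14 ATP synthase subunit genes, 8 were called higher and 5 lower in BH13 by limma, and ATP14 at 0.20 ± 0.10 was not called. Over all genes tested the shares were 38.0% higher and 43.3% lower. The largest increases were in TIM11, at 3.47 ± 0.13, ATP17, at 2.77 ± 0.12, and ATP19, at 2.40 ± 0.11, all small subunits of the membrane part. The decreases were led by ATP5, the stalk subunit that joins the catalytic head, which fell by 1.54 ± 0.11, and by the catalytic head genes ATP1 and ATP2, at -0.51 ± 0.07 and -0.39 ± 0.07. ATP15 at 0.94 and ATP16 at 0.52 were among the others called higher, and ATP4 at -0.30 among those called lower. The parts of the enzyme were not compared as groups. The 5 genes called lower had coding lengths of 639 bases (ATP5) or more, and all other subunit genes 525 bases (ATP7) or less. Whether length plays a part was not tested. The median over the subunits was 0.55. Of 6 assembly factor genes, ATP10 at 0.30 and FMC1 at 0.56 were called higher. ATP11 at -0.67, ATP12 at -0.30, ATP22 at -0.57 and ATP23 at -1.39 were called lower.

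The other hydrophilins were split. HSP12, a membrane-protecting stress protein, rose by 6.64 ± 0.18, and ROQ1 (YJL144W), a hydrophilin gene whose product also acts on the ubiquitin ligase Ubr1, rose by 3.59 ± 0.19. NOP6, a hydrophilin that works in ribosome assembly, fell by 1.77 ± 0.10, while CPP1 (YBR016W) and YNL190W were at -0.26 ± 0.08 and -0.31 ± 0.12 and were called lower. The 4 measured partners of the EGO complex all fell, in contrast to EGO4. They were MEH1 at -0.85 ± 0.14, SLM4 at -0.61 ± 0.12, GTR1 at -0.58 ± 0.07 and GTR2 at -0.67 ± 0.07, where the last pair encodes the GTPases of the complex. Against a background of 43.3% of genes called lower, a list of 4 is too short for its count to say more.

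TMA10 shares its name with other genes found with the translation machinery. Of 10 of these, 3 were called higher, 5 lower and 2 not called, next to 38.0% higher and 43.3% lower over all genes tested. The increases were TMA17, a proteasome assembly chaperone induced by stress, at 2.47 ± 0.08, TMA7 at 1.94 ± 0.11 and TMA19 at 1.65 ± 0.10. The largest decreases were TMA16 at -2.29 ± 0.09, TMA46 at -2.05 ± 0.11 and TMA23 at -0.75 ± 0.08. TMA20 at -0.11 and TMA108 at 0.14 were not called. The TMA10 difference of 6.88 was beyond all of these.

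All 11 other late-growth genes were called higher, where 38.0% of all genes tested were. Their median was 2.25, or 1.48 with normexp. They were led by MPC3, a mitochondrial pyruvate carrier subunit used in respiratory growth, at 4.95 ± 0.40, YGP1, a secreted stress glycoprotein, at 3.98 ± 0.13, and SPG4 at 3.95 ± 0.25, which was 2.28 with normexp. Regulator transcripts differed less. Of 10, 7 were called higher and 1 lower, next to 38.0% and 43.3% of all genes tested. Their median was 0.38. HAP4, the activator of respiratory genes, rose by 1.43 ± 0.08, GIS1, a late-growth factor, by 1.23 ± 0.09 and YAP1, an oxidative stress factor, by 0.76 ± 0.08. HOT1, an osmotic stress factor, fell by 1.21 ± 0.08. MSN2, a general stress factor, at 0.16 ± 0.10, and HSF1, the heat shock factor, at -0.0046 ± 0.09, were not called. Every list here was compiled with earlier results of these data known, so nothing is read from its count.

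**Figure D5:**
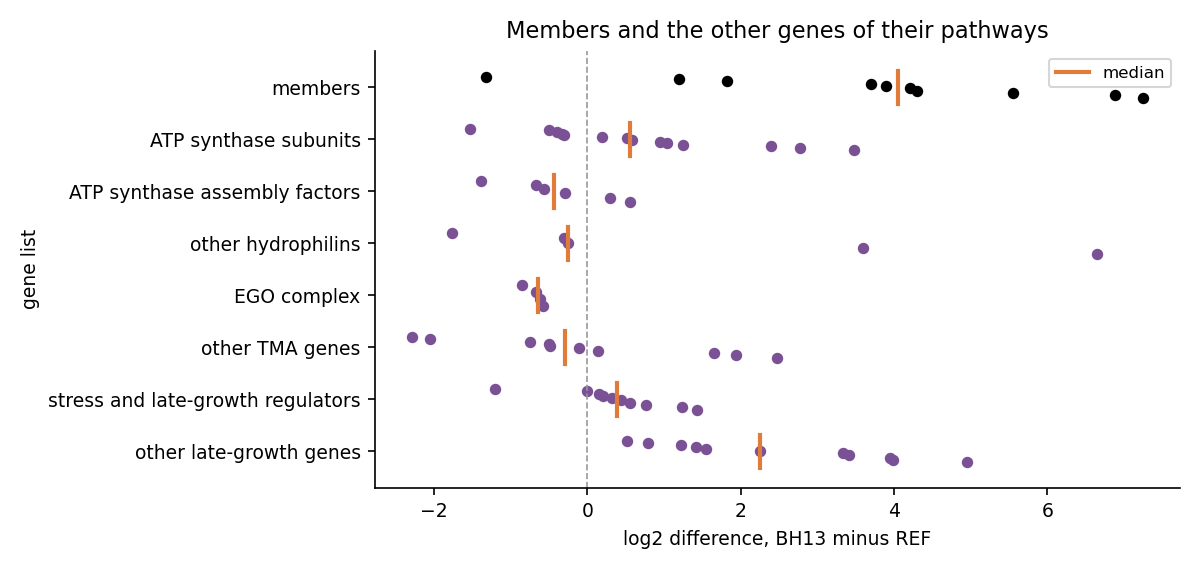
Log2 difference, BH13 minus REF (horizontal axis), of each tested gene in the 10 members (black) and in 7 lists of related genes (purple), 1 list per line (vertical axis), with an orange line at each list's median. The members' median is 4.05, that of the other late-growth genes 2.25 and that of the ATP synthase subunits 0.55, and the 4 EGO complex genes all lie below 0.

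The genes next to the members on their chromosomes were also looked up, by gene order in assembly R64. Of 20 such neighbours 19 were tested, of which 10 were called higher, 6 lower and 3 not called, with a median of 0.36, against the 38.0% called higher and 43.3% lower over all genes. TMA10 lay between YLR326W at -0.67 ± 0.08 and the NAD synthesis gene NMA1 at -0.86 ± 0.09, both called lower. EGO4 lay between SOL1 at 2.15 ± 0.07 and ARC35, a subunit gene of the actin-branching Arp2/3 complex, at 1.39 ± 0.09, both called higher but far below EGO4. In 2 cases the neighbour's difference exceeded that of the member. PAI3, which encodes an inhibitor of the vacuolar proteinase A, was at 2.76 ± 0.18 beside SIP18, and FMP40 was at 1.53 ± 0.10 beside GRE1. The highest difference of all neighbours was that of YIL059C, at 2.81 ± 0.20 beside RGI2, which was at 4.21. The neighbours named here were chosen after their values were seen.

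For each member, the other gene with the most similar profile was taken as the one with the smallest root mean square distance over the 6 arrays, after centring each gene on its own mean. These profiles are ruled by the difference between strains, and the likeness is a description. HSP12 was nearest to TMA10 (distance 0.16), HSP26, a small heat shock protein, to RGI1 (0.20), and RSB1, a sphingoid base exporter, to EGO4 (0.26). In REF the RSB1 signal never rose well above background. MAL32, a maltase gene with a near-identical copy, was nearest to STF2 (0.10), CWP1, a cell wall protein gene, to STF1 (0.098) and HAB1 to FMP16 (0.086). YNL194C was nearest to RGI2 (0.14), CAL4 to SIP18 (0.070), AGX1, an aminotransferase gene, to GRE1 (0.051) and LMO1 to INH1 (0.074).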

How the data were processed

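Spot intensity in the deposited scanner files is linear and already had background subtracted. Per the file headers the program was Feature Extraction 10.7.3.1, whereas the submitters' processing notes name version 9.1. The authors' deposited table holds log2 values of 1325 probes, with each probe's median over the arrays at 0. Its filter is not given in the sources used here. Its differences had a slope of 1.00 and the same sign as the scanner values for all 1325 probes. It holds 7 of the 10 members, not INH1, RGI2 or SIP18.

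Outlier and control spots were left out, log2 processed signals of a probe's spots averaged, and each array's 75th percentile (2301 to 4905 intensity units) subtracted. Probes with a spot well above background on at least 3 of 6 arrays were tested, giving 5890 genes. Systematic names of 5756 of 6256 genes matched the RefSeq table. The 2 strains were compared in R 4.3.3 by two-sided limma 3.58.1 fits (lmFit, eBayes), calling genes at a Benjamini-Hochberg adjusted p under 0.05. The script was tested on simulated data with few changed genes and no slide effect. Those settings differ from these data, so the test covers only the working of the script. The paralog ratio was taken per array, and its standard error from the SDs of both strains. The labels do not say whether replicates were separate cultures, so p-values reflect only these samples' spread, which may be technical, and the number of arrays limits precision. Members and lists were chosen with earlier results of these data known. Named were all members, all genes of lists of up to 6, the 3 largest called changes each way in longer lists, uncalled genes where 3 or fewer, and each member's nearest profile. Probe and gene sequences were not used, so whether a probe also reads a paralog was not tested. Python 3.11.15 with matplotlib 3.10.9 drew the figures.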

Additional observations from a re-analysis of the deposited data

How the results depend on the processing

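All 10 members kept their direction under every alternative run that holds them: normexp, median centring, quantile normalization, the filter on dim probes dropped or extended to all 6 arrays, the authors' table (7 members), the replicate block, the slide as a random block, negative-control subtraction and normexp with no offset (both chosen after seeing the data) and each array left out. No slide held both strains, so the slide as a random block cannot separate slide from strain. The filters and the replicate block leave each member's difference as it was by construction. The members were also picked on this contrast, so nothing is read from the directions kept. Of the values recomputed, 249 moved by less than the spread between replicates or, for counts, by less than 1.5 times. Another 12 moved by more, and 2 counts, both from the authors' table, were weaker. Many of the 249 could not move, such as member differences under the filters and the replicate block, and paralog ratios under median centring. Their number is therefore no measure of robustness. With normexp the median over the members was 3.57, the RGI1 to RGI2 ratio changed by 2.74 and the SIP18 to GRE1 ratio by 0.14. RGI2 was then at 2.70, SIP18 at 0.95 and GRE1 at 0.81, and SIP18 was at 1.45 with quantile normalization. With normexp and no offset the RGI1 to RGI2 ratio changed by 1.75 and the SIP18 to GRE1 ratio by 0.40, with RGI2 at 3.73, so that the offset accounts for part of the fall from 4.21. The authors' table gave 581 genes higher and 744 lower, against 2240 and 2549. Every one of its 1325 probes was thus called. It comes from the same arrays, so the directions of its 7 members are no separate support. The replicate number as a block gave 2269 higher and 2576 lower. It could not change a member's difference, since each number occurs once in each strain. Deviations of arrays with the same number correlated at 0.126, 0.242 and 0.003, so the numbers are not taken to pair the samples. Dim probes limit the sizes for RGI2, SIP18 and GRE1.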
